A study of Mus musculus with 12 samples.

Results

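The genes described here are 10 members of the endoplasmic reticulum (ER) stress and ATF4 response, measured in the left ventricle of mice after pressure overload and pimobendan. They were taken by gene symbol for what they are known to do: Hspa5, Hsp90b1, Dnajb9, Herpud1 and Xbp1 on the protein folding side, and Atf4, Ddit3, Trib3, Chac1 and Asns on the ATF4 side. They are 10 of the 17052 genes in the deposited table, and all 10 were among the 11415 genes tested. Each library came from a separate C57BL/6 mouse, with 3 mice in each of 4 groups. TAC+pimobendan mice had transverse aortic constriction (TAC), in which the aortic arch is narrowed so that the left ventricle pumps against a higher pressure, at 8 weeks of age, and oral pimobendan at 1 mg/kg/day for 4 weeks. TAC+control mice had the constriction without the drug. Sham+pimobendan mice had the operation without ligation and the same drug dose, and Sham+control mice had that operation alone. All mice were sampled at 12 weeks. Pimobendan is a calcium sensitizer and phosphodiesterase inhibitor, and the series asked what it does to the hypertrophy that pressure overload brings on. The labels name no vehicle for the control groups.

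The ER folds secreted and membrane proteins, and when unfolded proteins build up, membrane sensors start the unfolded protein response. The sensor kinase PERK phosphorylates the initiation factor eIF2alpha, which lowers translation in general but raises that of the transcription factor ATF4. The sensors IRE1 and ATF6 lead, through XBP1 and cleaved ATF6, to more chaperones and more ER-associated degradation. ATF4 is also reached from amino acid shortage and other stresses through other kinases of eIF2alpha, so its targets do not by themselves mark the ER. In heart muscle the response is known from pressure overload and ischemia. The measurements are of RNA: they do not show the translation of ATF4, nor the IRE1-spliced form of Xbp1, which shares its gene's value with the unspliced form.

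The promoter stretches that hold a known stress element are printed first, since they show which members share which letters. Promoters of all 10 members were found in RefSeq (GRCm38.p6), and the 250 bases before each gene's start were searched on both strands. The ER stress element ERSE, searched as CCAAT and CCACG spaced 9 bases apart, was found in Hspa5 (1 match) and Hsp90b1 (2 matches), and in 0.113% of 32851 promoters. ERSE-II, searched as ATTGG and CCACG spaced 1 base apart, was found in Herpud1 and in 0.0304% of all promoters. The core TGACGTG of the XBP1 and ATF6 element was found in Hspa5 and in 1.65% of all promoters. The C/EBP-ATF element TGATGNAA, through which ATF4 acts, was found in Chac1, Asns and Herpud1 and in 3.45% of all promoters. The cAMP response element TGACGTCA was found in 0 of the 10 members and in 1.55% of all promoters. No match of 1 motif overlapped a match of another in these windows. Capitals mark the matches, and lower case their surroundings, 5′ to 3′ on the gene's strand. The Hspa5 stretch holds TGACGTG first and then ERSE, the Hsp90b1 stretch ERSE on either strand, and the Herpud1 stretch the C/EBP-ATF element, read on the other strand, and then ERSE-II. In Chac1 the C/EBP-ATF element is also read on the other strand.
Hspa5, chr2:34771923-34772053, plus strand: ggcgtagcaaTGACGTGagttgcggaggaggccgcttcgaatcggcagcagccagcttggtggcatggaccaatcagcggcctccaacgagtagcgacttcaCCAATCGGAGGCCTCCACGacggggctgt
Hsp90b1, chr10:86705523-86705666, minus strand: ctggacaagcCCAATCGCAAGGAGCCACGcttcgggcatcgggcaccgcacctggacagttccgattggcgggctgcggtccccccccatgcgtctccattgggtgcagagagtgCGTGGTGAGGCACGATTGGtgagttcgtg
Herpud1, chr8:94386307-94386397, plus strand: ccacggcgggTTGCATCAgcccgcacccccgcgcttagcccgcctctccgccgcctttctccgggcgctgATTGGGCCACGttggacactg
Chac1, chr2:119351039-119351066, plus strand: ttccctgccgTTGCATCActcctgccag
Asns, chr6:7693215-7693242, minus strand: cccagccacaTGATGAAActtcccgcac
The RefSeq starts used for Herpud1 and Atf4 lie downstream of the starts given in the deposited table, position 94379184 of chromosome 8 and position 80253409 of chromosome 15. That of Asns lies upstream of the deposited start, position 7693182 of chromosome 6. A match is a description of the letters in these windows, and binding was not measured.

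The libraries carried the muscle of the ventricle throughout. The 8 cardiomyocyte markers summed to between 49897 and 58074 FPKM (fragments per kilobase of transcript, scaled to the mapped fragments of the library) over the 12 libraries, and the 4 T cell markers to at most 0.72 FPKM. Erythroid markers summed to 1154 to 2295 FPKM in TAC+pimobendan, 4213 to 6720 in TAC+control, 462 to 1917 in Sham+pimobendan and 1564 to 3076 in Sham+control libraries. GC content moved with the groups. Across 11334 genes, each library's difference from the average library was ranked against transcript GC content, and the rho of Spearman averaged -0.41 in TAC+pimobendan, 0.14 in TAC+control, 0.34 in Sham+pimobendan and 0.065 in Sham+control. The 3 Sham+control libraries were spread from -0.34 in replicate 1 to 0.45 in replicate 3. Sham+control replicate 1 was also high in several members, as given below. The table holds no counts. From the smallest values of short genes, which step by the worth of 1 fragment, relative depth was estimated at between 0.819 and 1.14 across libraries, an estimate made after the values were seen.

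By level, the members lay in 2 tiers. Hspa5 averaged 190.5 FPKM over the 12 libraries and Herpud1 183.6, followed by Atf4 with 70.4, Hsp90b1 with 67.5, Xbp1 with 42.4, Dnajb9 with 32.9 and Ddit3 with 26.9. The 3 others were low: Chac1 averaged 2.55 FPKM, Trib3 2.16 and Asns 1.95. Chac1 varied most, with its highest library at 9.55 times its lowest, and Xbp1 least, at 1.69 times.

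**Figure D1:**
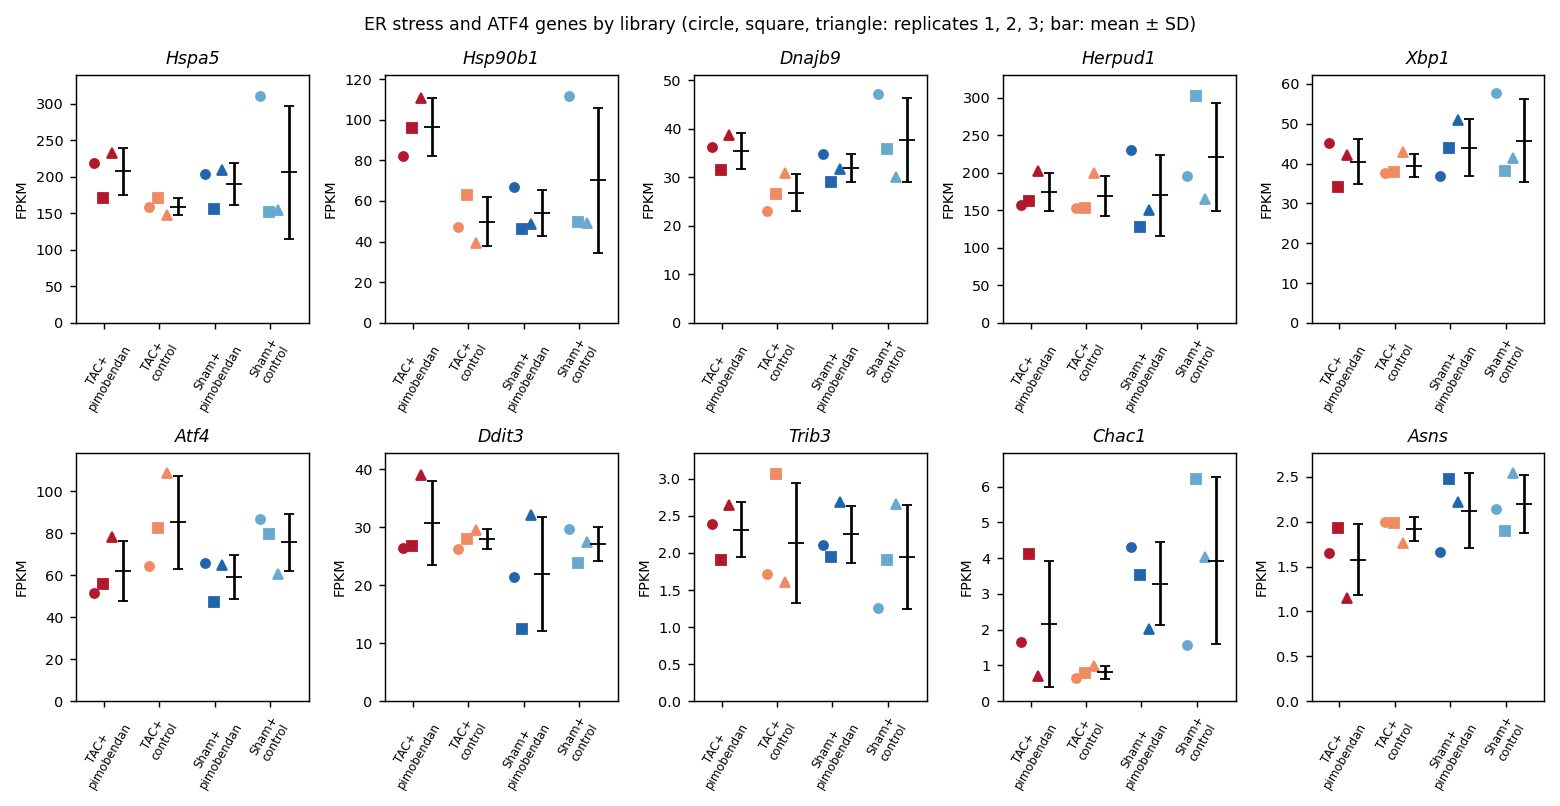
FPKM (y axis, from 0) of the 10 genes in each of the 12 libraries, by group, with the mean and SD of each group beside its points. Hsp90b1 lies at 82.2 FPKM or more in the 3 TAC+pimobendan libraries and in Sham+control replicate 1, and Chac1 lies under 1 FPKM in the 3 TAC+control libraries and in TAC+pimobendan replicate 3.

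None of the 10 members passed the test in any of the 5 comparisons at a limma adjusted p under 0.05. For TAC+control against Sham+control, 0 of 10 members and 0% of all genes tested were called, and 2 of 10 members against 8.33% of all genes had an unadjusted p under 0.05. Pimobendan after TAC (TAC+pimobendan against TAC+control) gave 0 of 10 members and 3.27% of all genes called, with 2 members and 26.6% of genes at an unadjusted p under 0.05. In sham mice the drug gave 0 members and 0% of genes called, with 0 members and 4.54% of genes at an unadjusted p under 0.05. TAC under the drug (TAC+pimobendan against Sham+pimobendan) gave 0 members and 4.89% of genes called, with 2 members and 22.9% of genes at an unadjusted p under 0.05. The interaction, the TAC effect with the drug minus that without it, gave 0 members and 0% of genes called, with 2 members and 20.3% of genes at an unadjusted p under 0.05. The comparisons share groups, so the members' values in them are given side by side and are not independent.

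**Figure D2:**
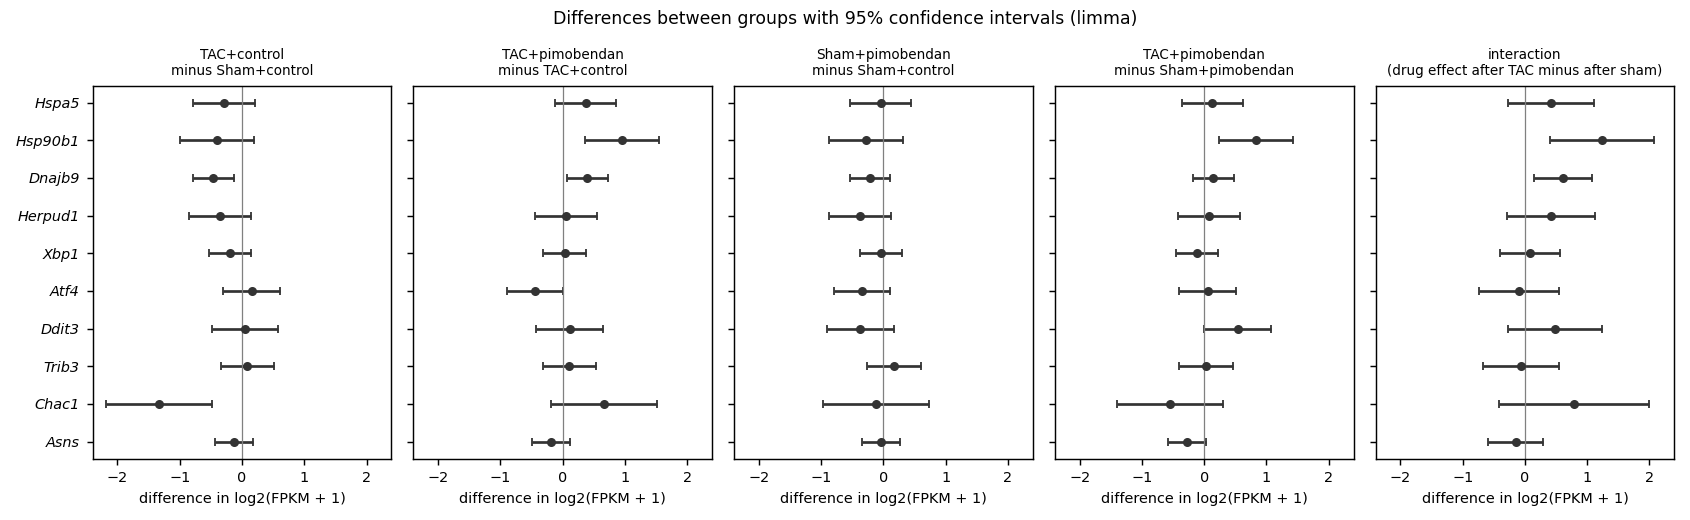
Differences in log2(FPKM + 1) between groups (x axis) for each of the 10 genes, with 95% confidence intervals from limma, in the 5 comparisons. Intervals that leave out 0 are those of Chac1 and Dnajb9 for TAC, Hsp90b1 and Dnajb9 for the drug after TAC, Hsp90b1 and Ddit3 for TAC under the drug, and Hsp90b1 and Dnajb9 for the interaction, none of them past the adjusted threshold.

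Among the folding genes, Hsp90b1 differed most between groups. It encodes GRP94, the HSP90 chaperone of the ER lumen (NCBI Gene 22027; in the deposited table's coordinates, GRCm38, chr10:86690841-86705444, minus strand). Hsp90b1 had 82.2, 95.7 and 111 FPKM in TAC+pimobendan, 47.1, 62.9 and 39.5 in TAC+control, 66.9, 46.0 and 48.9 in Sham+pimobendan, and 111, 49.8 and 49.4 in Sham+control libraries. All 3 TAC+pimobendan libraries lay above all TAC+control and all Sham+pimobendan libraries, while Sham+control replicate 1 was as high as the highest of them. Its mean in TAC+pimobendan was 1.93 times that in TAC+control and 1.78 times that in Sham+pimobendan.

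On the log2 scale, Hsp90b1 was 0.95 ± 0.27 higher (SE; 95% confidence interval 0.36 to 1.54) in TAC+pimobendan than in TAC+control (limma adjusted p = 0.0609). The difference of TAC+pimobendan from Sham+pimobendan was 0.83 ± 0.27 (limma adjusted p = 0.0911). Sham+control replicate 1 is in none of the groups compared here. It enters through the shared variance, the set of genes tested and the adjustment over all genes. Without that library, Hsp90b1 passed in both (limma adjusted p = 0.0421 and 0.0302). It also passed for the drug after TAC in a fit of the TAC groups alone with the replicate number as a block (limma adjusted p = 0.0447) and on TPM, the other unit in the table (0.0418), but not with the block in the fit of all 12 libraries (0.0914). TAC without the drug gave -0.40 ± 0.27 (limma adjusted p = 0.704), and -0.02 without Sham+control replicate 1. For the drug in sham mice, the value was -0.29 ± 0.27 (limma adjusted p = 0.910), and it turned to 0.10 without that library. The interaction was 1.24 ± 0.39 (limma adjusted p = 0.116), and 0.85 without that library (0.231). The transcript has a GC content of 42.1%, and with the GC trend of each library removed the drug difference after TAC was 0.67 (limma adjusted p = 0.160).

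Dnajb9 encodes ERdj4, a co-chaperone of BiP that holds IRE1 inactive (NCBI Gene 27362; chr12:44205062-44210068, minus strand). It had 36.2, 31.5 and 38.7 FPKM in TAC+pimobendan, 23.1, 26.5 and 30.8 in TAC+control, 34.8, 29.0 and 31.8 in Sham+pimobendan, and 47.1, 35.9 and 30.0 in Sham+control libraries. The 3 TAC+pimobendan libraries lay above the 3 of TAC+control by a narrow gap, and TAC+control overlapped Sham+control at 1 library on each side. Dnajb9 was 0.39 ± 0.15 higher on the log2 scale in TAC+pimobendan than in TAC+control (limma adjusted p = 0.121). TAC+control differed from Sham+control by -0.46 ± 0.15 (limma adjusted p = 0.520), and by -0.29 without Sham+control replicate 1. The difference of TAC+pimobendan from Sham+pimobendan was 0.15 ± 0.15, and that of Sham+pimobendan from Sham+control -0.21 ± 0.15, which was -0.05 without Sham+control replicate 1. The interaction was 0.61 ± 0.21 (limma adjusted p = 0.142), and 0.19 with the GC trend removed (0.686). Without Sham+control replicate 1 the interaction was 0.44 (limma adjusted p = 0.309). At 40.6%, its GC content was the lowest of the members, and with the GC trend removed the drug difference after TAC was 0.07 (limma adjusted p = 0.806).

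Hspa5 encodes BiP, the HSP70 chaperone that keeps the stress sensors inactive (NCBI Gene 14828; chr2:34772090-34776529, plus strand). Its FPKM were 218, 171 and 233 in TAC+pimobendan, 158, 171 and 148 in TAC+control, 203, 157 and 209 in Sham+pimobendan, and 311, 152 and 155 in Sham+control libraries. The 4 groups overlapped, and a single library, Sham+control replicate 1, stood far above the rest. The mean in TAC+pimobendan was 207.5 ± 32.6 FPKM, against 159 ± 11.6 in TAC+control, 189.6 ± 28.7 in Sham+pimobendan and 206 ± 91.0 in Sham+control (SD, n = 3 each). Pimobendan after TAC gave a log2 difference of 0.37 ± 0.23 (95% confidence interval -0.12 to 0.86; limma adjusted p = 0.317), and 0.19 with the GC trend removed (0.661). TAC without the drug gave -0.29 ± 0.23 (limma adjusted p = 0.744). The TAC value turned to 0.05 without Sham+control replicate 1.

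Herpud1 encodes HERP, a membrane protein of ER-associated degradation (NCBI Gene 64209; chr8:94379184-94395366, plus strand). It had 158, 163 and 203 FPKM in TAC+pimobendan, 153, 154 and 199.9 in TAC+control, 231, 128 and 151 in Sham+pimobendan, and 196, 303 and 165 in Sham+control libraries. All 4 groups overlapped, and the highest value was that of Sham+control replicate 2, not of replicate 1 as in the chaperones. For TAC without the drug, the log2 difference was -0.35 ± 0.23 (limma adjusted p = 0.703), and -0.10 without Sham+control replicate 2. Pimobendan gave 0.05 ± 0.23 after TAC and -0.38 ± 0.23 in sham mice (limma adjusted p = 0.914 and 0.910), the sham value being -0.12 without Sham+control replicate 2.

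Xbp1 encodes the transcription factor whose RNA IRE1 splices (NCBI Gene 22433; chr11:5520641-5525993, plus strand). Its FPKM were 45.0, 34.2 and 42.2 in TAC+pimobendan, 37.5, 38.0 and 42.8 in TAC+control, 36.9, 44.0 and 51.0 in Sham+pimobendan, and 57.6, 38.2 and 41.4 in Sham+control libraries. The groups overlapped, again with Sham+control replicate 1 highest. The 4 log2 differences lay between -0.19 for TAC without the drug and 0.03 for the drug after TAC, with an SE of 0.16 in each. Sham+control replicate 1 was thus the highest of the 12 libraries for 4 members, Hspa5, Hsp90b1, Dnajb9 and Xbp1, and the lowest for Trib3.

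Atf4 was the most abundant ATF4-side member (NCBI Gene 11911; chr15:80253409-80257545, plus strand). It had 51.7, 55.7 and 78.3 FPKM in TAC+pimobendan, 64.2, 82.6 and 108 in TAC+control, 65.7, 47.1 and 64.9 in Sham+pimobendan, and 86.7, 79.5 and 60.4 in Sham+control libraries. Each pimobendan group overlapped its control group, with the lower mean on the drug side in both. The mean in TAC+pimobendan was 0.727 times that in TAC+control, and the mean in Sham+pimobendan 0.784 times that in Sham+control. The log2 difference was -0.44 ± 0.21 (95% confidence interval -0.90 to 0.01; limma adjusted p = 0.194) after TAC and -0.35 ± 0.21 (limma adjusted p = 0.910) in sham mice, and the interaction was -0.10 ± 0.30 (limma adjusted p = 0.890). In each of the 3 TAC pairs of the same replicate number, the TAC+pimobendan library was the lower one, though the labels give no pairing of mice. In a fit of the TAC groups alone with the replicate number as a block, the drug difference had a limma adjusted p of 0.049996 and passed. With the same block in the fit of all 12 libraries it did not pass (limma adjusted p = 0.226), nor with the block and the GC trend removed (0.352). Without TAC+control replicate 3, the highest library, the difference was -0.26 (limma adjusted p = 0.486). TAC without the drug gave 0.15 ± 0.21 (limma adjusted p = 0.852).

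Ddit3 encodes CHOP, a transcription factor downstream of ATF4 that is linked to cell death (NCBI Gene 13198; chr10:127290793-127296291, plus strand). It had 26.5, 26.7 and 39.0 FPKM in TAC+pimobendan, 26.2, 28.0 and 29.6 in TAC+control, 21.3, 12.5 and 32.1 in Sham+pimobendan, and 29.7, 23.9 and 27.5 in Sham+control libraries. TAC+control and Sham+control covered nearly the same narrow range, and Sham+pimobendan replicate 2 was the lowest library. TAC+control differed from Sham+control by 0.05 ± 0.25 on the log2 scale (95% confidence interval -0.49 to 0.59; limma adjusted p = 0.966). TAC under the drug gave 0.54 ± 0.25 (limma adjusted p = 0.218), and 0.20 without Sham+pimobendan replicate 2.

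Chac1, a target of ATF4, encodes an enzyme that breaks down glutathione (NCBI Gene 69065; chr2:119351242-119354326, plus strand). It had 1.65, 4.11 and 0.72 FPKM in TAC+pimobendan, 0.65, 0.78 and 0.99 in TAC+control, 4.30, 3.52 and 2.02 in Sham+pimobendan, and 1.56, 6.21 and 4.03 in Sham+control libraries. All 3 TAC+control libraries lay below all 3 of Sham+control and of Sham+pimobendan, and TAC+pimobendan overlapped each of the other groups. In TAC+control the mean was 0.205 times that in Sham+control. On the log2(FPKM + 1) scale, Chac1 differed by -1.33 ± 0.39 in TAC+control against Sham+control (95% confidence interval -2.18 to -0.48; limma adjusted p = 0.461), and by -0.99 without Sham+control replicate 2. It was the 1 of 10 members without overlap in that comparison, where 9.74% of all genes lay lower and 3% higher without overlap. Pimobendan after TAC gave 0.66 ± 0.39 (limma adjusted p = 0.300), and 0.25 without TAC+pimobendan replicate 2, its highest library in that group. TAC under the drug gave -0.55 ± 0.39 (limma adjusted p = 0.430), and -0.96 without that library.

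Chac1 reached 1 FPKM in 8 of the 12 libraries and in none of TAC+control, so it entered the test through the other groups. At an assumed fragment length of 200 bases, its values correspond to about 11.6 to 21.7 fragments in TAC+control and about 30.2 to 119.9 in Sham+control libraries. Immediate early genes, which respond to handling and to acute signals, also differed between libraries. None of the 11 was at 0 in all libraries, and they summed to 595 to 1291 FPKM in TAC+pimobendan, 357 to 1444 in TAC+control, 731 to 1320 in Sham+pimobendan and 609 to 2042 in Sham+control. Their mean log2 difference from Sham+control was -1.83 and -1.66 in TAC+control replicates 1 and 2 and 0.33 in replicate 3, and -1.21 in Sham+control replicate 3, which had 4.03 FPKM of Chac1. Their part in the Chac1 values was not tested.

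Trib3, a pseudokinase induced by ATF4 and CHOP (NCBI Gene 228775; chr2:152337425-152344060, minus strand), had 2.39, 1.91 and 2.65 FPKM in TAC+pimobendan, 1.72, 3.07 and 1.61 in TAC+control, 2.11, 1.95 and 2.69 in Sham+pimobendan, and 1.26, 1.91 and 2.66 in Sham+control libraries. Asns, the asparagine synthetase that ATF4 induces when amino acids are short (NCBI Gene 27053; chr6:7675165-7693182, minus strand), had 1.65, 1.93 and 1.15 FPKM in TAC+pimobendan, 2.00, 1.98 and 1.76 in TAC+control, 1.66, 2.48 and 2.22 in Sham+pimobendan, and 2.14, 1.90 and 2.54 in Sham+control libraries. For both genes the 4 groups overlapped. The log2 differences of Trib3 in the 4 comparisons lay between 0.03 and 0.16, with an SE of 0.20, and those of Asns between -0.28 and -0.04, with an SE of 0.14. Asns came nearest to the threshold for TAC under the drug, at -0.28 ± 0.14 (limma adjusted p = 0.265).

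**Figure D3:**
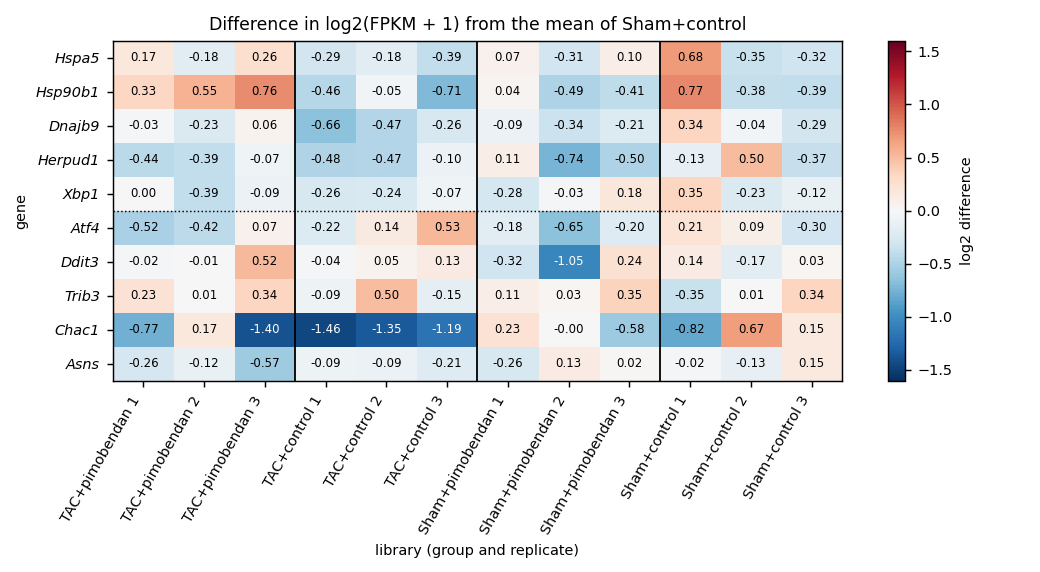
Each gene's log2(FPKM + 1) in each library as a difference from the mean of Sham+control, folding genes above the dotted line and ATF4-side genes below it, groups separated by vertical lines. The TAC+pimobendan libraries are high in Hsp90b1, Sham+control replicate 1 in Hspa5 and Hsp90b1, and Chac1 is low in TAC+control.

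Counted over the members, TAC without the drug gave 3 positive and 7 negative log2 differences (median -0.24), where 3979 of the 11415 genes tested were positive and 7436 negative (median -0.06). Without Sham+control replicate 1 the members' median was -0.05, near the -0.04 over all genes. Pimobendan after TAC gave 8 positive and 2 negative (median 0.11), near the median of 0.10 over all genes. With median-ratio scaling, which divides each library by its median ratio to the average library, the median over all genes in that comparison was -0.01 and the members split into 5 positive and 5 negative (median 0.01). Leaving out single TAC libraries moved the members' median between 0.01, without TAC+pimobendan replicate 3, and 0.21, without TAC+control replicate 2. Hsp90b1 and Dnajb9, 2 of the 10, lay higher without overlap there, where 23.3% of all genes did, and 0 members lay lower, where 6.64% did. In sham mice the drug gave 1 positive and 9 negative (median -0.17, against 0.01 over all genes). Without Sham+control replicate 1 this was 3 positive and 7 negative (median -0.05, against 0.02 over all genes), while the median was -0.29 without Sham+pimobendan replicate 1 and -0.28 without Sham+control replicate 3. In that comparison there were 0 members without overlap, where 4.98% of all genes lay lower and 6.16% higher without overlap. TAC under the drug gave 7 positive and 3 negative (median 0.06, against -0.01 over all genes), with Hsp90b1 the 1 member higher without overlap, where 18.6% of all genes were, and 0 members lower, where 9.35% were. The sign of its median turned without Sham+pimobendan replicate 2 (-0.07) and without TAC+pimobendan replicate 3 (-0.04). The interaction gave 7 positive and 3 negative (median 0.42, against 0.07 over all genes), and a median of 0.20 with the GC trend removed, 0.20 without Sham+pimobendan replicate 2 and 0.27 without Sham+control replicate 1.

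Over the 12 libraries, Hspa5 and Hsp90b1 had a Pearson's r of 0.78 and a Spearman's rho of 0.76 on the log2 scale (two-sided permutation test, p = 0.00248, adjusted over 45 pairs 0.0693, and for rho 0.00619 and 0.265). Without the 2 libraries farthest from the median of Hspa5, TAC+pimobendan replicate 3 and Sham+control replicate 1, r was 0.55. The r of deviations from the group means was 0.84 with all 12 libraries kept. Sham+control replicate 1, far above replicates 2 and 3 of its group in both genes, was among them. Hspa5 and Dnajb9 had an r of 0.77 and a rho of 0.61 (permutation test, p = 0.00308, adjusted 0.0693, and for rho 0.0398 and 0.498), and 0.44 without the same 2 libraries. None of the 45 pairs passed an adjusted p under 0.05 in the permutation test, and 4 had an unadjusted p under 0.05 for r and 3 for rho.

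Between Atf4 and its targets the correlations were of either sign. Chac1 and Atf4 had an r of -0.40 and a rho of -0.28 (permutation test, p = 0.193 and 0.379, adjusted 0.650 and 0.802), and Atf4 and Asns an r of -0.32 and a rho of -0.24 (permutation test, p = 0.312 and 0.444, adjusted 0.739 and 0.802). Without the 2 libraries farthest from the median, these r were -0.64 and -0.11. Ddit3 and Atf4 had an r of 0.55 and a rho of 0.50 (permutation test, p = 0.0608 and 0.104, adjusted 0.425 and 0.557), and an r of 0.26 without TAC+pimobendan replicate 3 and Sham+pimobendan replicate 2. The difference between the chaperone pairs and the ATF4-side pairs was not tested.

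**Figure D4:**
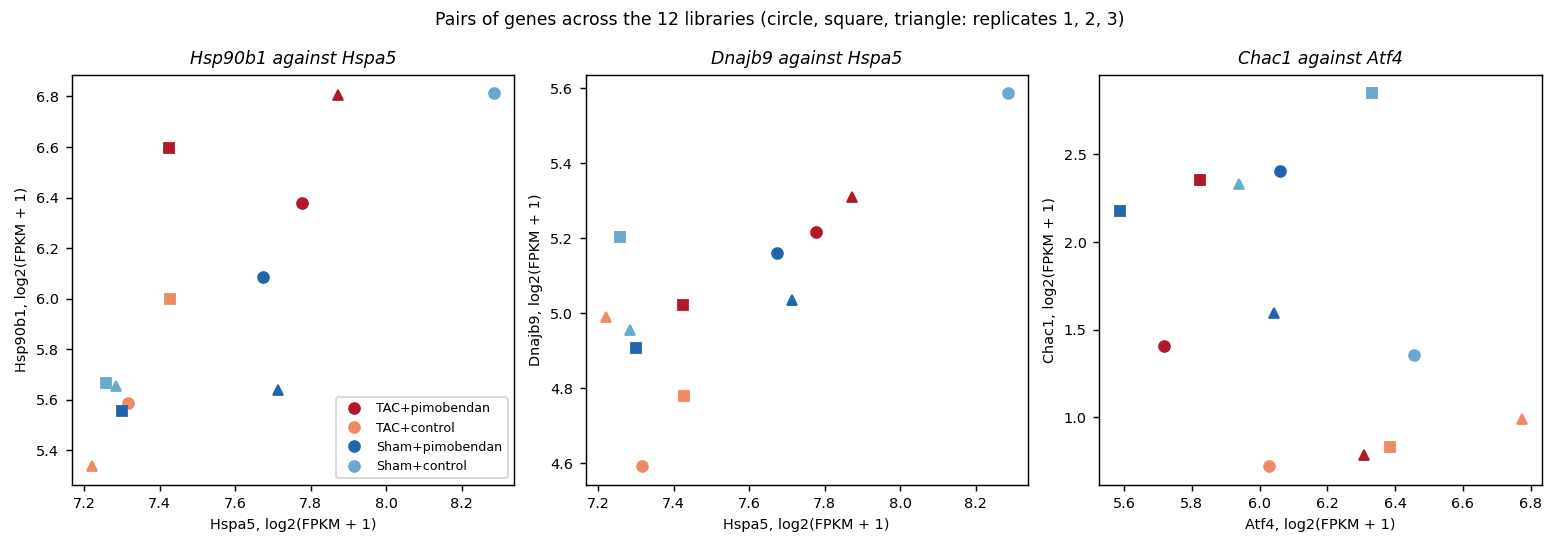
Pairs of genes in log2(FPKM + 1) on both axes, 1 point per library and colour by group. Hsp90b1 and Dnajb9 are high where Hspa5 is high, with Sham+control replicate 1 at the upper right of both panels, while Chac1 against Atf4 shows no such line.

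By likeness of pattern over the 12 libraries, the genes with a mean of at least 5 FPKM that lay nearest to Hspa5 were Spcs2, a signal peptidase subunit (r = 0.90), Pdia6, a disulfide isomerase of the ER (0.83), Dnajb11, a co-chaperone of BiP (0.83), Manf, an ER-resident secreted factor (0.82), and Arf2, a small GTPase (0.82), out of 7499 genes. Manf reached 46.6 FPKM in its highest library and averaged 17.0 in TAC+pimobendan, 14.7 in TAC+control, 17.3 in Sham+pimobendan and 26.2 in Sham+control. Nearest to Chac1 were Zc3h4 (r = 0.91), Tbc1d10a (0.90), Hpcal1 (0.88), Klf13 (0.87) and Flcn, which encodes folliculin (0.87), out of 7500 genes. Flcn averaged 17.7 FPKM in TAC+pimobendan, 15.4 in TAC+control, 22.3 in Sham+pimobendan and 24.1 in Sham+control, the same order of group means as Chac1. These genes were picked as the nearest of all candidates, so their r is a description. Each r with Hspa5 includes Sham+control replicate 1, where Hspa5 had 311 FPKM against at most 233 in any other library. That library was also the highest for 14 of 22 other ER chaperones and folding enzymes.

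The wider pathway was read in 8 further lists. TAC without the drug gave 0 called genes in each of them. Of 22 other ER chaperones and folding enzymes, 21 had a negative log2 difference in TAC+control against Sham+control (median -0.16, against -0.06 over all genes). Sham+control replicate 1 was the highest of the 12 libraries for 14 of these 22 genes, and without it 19 were negative (median -0.04, against -0.04 over all genes), while without Sham+control replicate 2 all 22 were negative (median -0.25). Those with the smallest p were Creld2, a disulfide isomerase-like protein, at -0.36 ± 0.17 (limma adjusted p = 0.602) and Dnajc3, the inhibitor p58IPK, at -0.34 ± 0.16 (0.603). With median-ratio scaling, quantile normalization or the GC trend removed, 19 of the 22 were negative. In bulk tissue, fewer cells of a type and less RNA per cell cannot be told apart, and markers of other cell types moved with this comparison: 8 of 8 endothelial markers were negative (median -0.20), 6 of 6 of smooth muscle and pericytes negative (median -0.38) and 7 of 7 erythroid positive (median 1.03), with 0 called. Endothelial markers summed to 322 to 391 FPKM in TAC+control and 373 to 433 in Sham+control, and none was at 0 in all libraries. Their part in the chaperone values was not tested.

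The other lists in TAC+control against Sham+control had no call either, where 7436 of the 11415 genes tested were negative. Of 25 other ATF4-linked genes, 20 were negative (median -0.17), with Stc2, a secreted stress protein, at -0.29 ± 0.14 (limma adjusted p = 0.607) and Cebpb, a partner of ATF4, at -0.80 ± 0.40 (0.623). Among 6 sensors and their proteases, 5 were negative (median -0.17). Eif2ak3, which encodes PERK, had -0.39 ± 0.12 (limma adjusted p = 0.476) and Mbtps1, the first protease that cleaves ATF6, -0.29 ± 0.11 (0.561). These and Ern1, which encodes IRE1, lay lower without overlap, 3 of the 6, where 9.74% of all genes did. Of 11 other kinases, phosphatase subunits and exchange factor subunits around eIF2alpha, 6 were positive and 5 negative (median 0.02), among the negative ones Eif2ak4, the amino acid sensor GCN2, at -0.35 ± 0.10 (limma adjusted p = 0.461) and Ppp1r15a, the stress-induced phosphatase subunit GADD34, at -0.97 ± 0.40 (0.561). In this comparison 10 of the 11 immediate early genes were negative and 1 positive (median -1.30), with 0 called. Their part in the Cebpb and Ppp1r15a values was not tested. ER-associated degradation had 14 of 16 negative (median -0.08), with Edem2 at -0.32 ± 0.11 (limma adjusted p = 0.542) and Os9 at -0.17 ± 0.09 (0.637). Aminoacyl-tRNA synthetases, of which many are ATF4 targets, had 10 of 16 positive and 6 negative (median 0.01), with Eprs at -0.39 ± 0.13 (limma adjusted p = 0.542) and Yars at 0.14 ± 0.08 (0.656). The translocon and ER export list had 13 of 18 negative (median -0.09), with Spcs3 at -0.24 ± 0.12 (limma adjusted p = 0.636) and Sec61a1 at -0.20 ± 0.11 (0.664). Death-linked genes had 6 of 7 negative (median -0.21), with the BH3-only gene Bcl2l11 at -0.81 ± 0.17 (limma adjusted p = 0.384) and Casp4 at -0.52 ± 0.16 (0.476).

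In TAC+pimobendan against TAC+control, 6 genes of these lists rose past the threshold, where 3.15% of all genes did. Called were 1 of 11 genes around eIF2alpha, 1 of 16 synthetases, 2 of 18 translocon and export genes and 2 of 7 death-linked genes. The other lists had no call: 0 of 6 sensors and proteases, 0 of 25 other ATF4-linked genes, 0 of 22 other chaperones and 0 of 16 degradation genes. No list was tested as a set. In the 4 lists with a call, in the order given, 7, 7, 11 and 4 genes were positive (medians 0.02, -0.01, 0.08 and 0.38, against 0.10 over all genes). Eif2ak2, the kinase PKR, rose by 0.93 ± 0.19 on the log2 scale (limma adjusted p = 0.0409), Eprs, the glutamyl-prolyl-tRNA synthetase, by 0.64 ± 0.13 (0.0409), and Sec62 and Sec63, which work with the translocon, by 0.79 ± 0.19 (0.0457) and 0.61 ± 0.15 (0.0488). The inflammatory caspase Casp4 rose by 0.74 ± 0.16 (limma adjusted p = 0.0425) and Casp12, a caspase tied to the ER in mice, by 0.80 ± 0.20 (0.0488). The GC content of these 6 transcripts lay between 37.3% and 44.0%. With the GC trend removed 0 of all genes were called, and the log2 differences of these 6 were 0.35 to 0.70 (limma adjusted p between 0.0960 and 0.189). With median-ratio scaling 0 of all genes were called, and the log2 differences of these 6 were 0.51 to 0.86 (limma adjusted p between 0.0628 and 0.0784). With the replicate number as a block in the fit of all 12 libraries, 1 of all genes was called and none of these 6 (limma adjusted p between 0.0788 and 0.0869). In the block fit of the TAC groups alone, Eif2ak2, Sec62, Eprs and Sec63 passed, and Casp4 (limma adjusted p = 0.0537) and Casp12 (0.0545) did not. Cell type markers also moved in this comparison, where 66.0% of all genes were positive. Macrophage markers were positive in 8 of 8 (median 0.26), with 0 called. Erythroid markers were negative in 7 of 7 (median -1.27), with 1 called lower. Of 8 cardiomyocyte markers 3 were positive and 5 negative, with 1 called higher and 1 lower. The part of cell types in the values of these 6 genes was not tested.

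The other chaperones and the degradation genes had medians near that of all genes for the drug after TAC. Of 22 other chaperones, 14 were positive (median 0.09, against 0.10 over all genes), led by Canx at 0.49 ± 0.15 (limma adjusted p = 0.0682) and Ero1l at 0.34 ± 0.12 (0.0977), and 9 of the 22 were positive with median-ratio scaling. Among 16 genes of ER-associated degradation, 12 were positive (median 0.11) and 8 with median-ratio scaling, led by Edem3 at 0.51 ± 0.15 (limma adjusted p = 0.0616) and Ubxn4 at 0.31 ± 0.10 (0.0712). Of 25 other ATF4-linked genes, 15 were positive (median 0.02), and Vldlr, a lipoprotein receptor, had 0.53 ± 0.17 (limma adjusted p = 0.0800) against -0.20 ± 0.08 for Shmt2, a mitochondrial serine enzyme (0.138). Eif2ak3 had 0.42 ± 0.12 (limma adjusted p = 0.0609) and Mbtps2, the second ATF6 protease, 0.27 ± 0.11 (0.158), and 5 of the 6 sensors and proteases were positive.

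**Figure D5:**
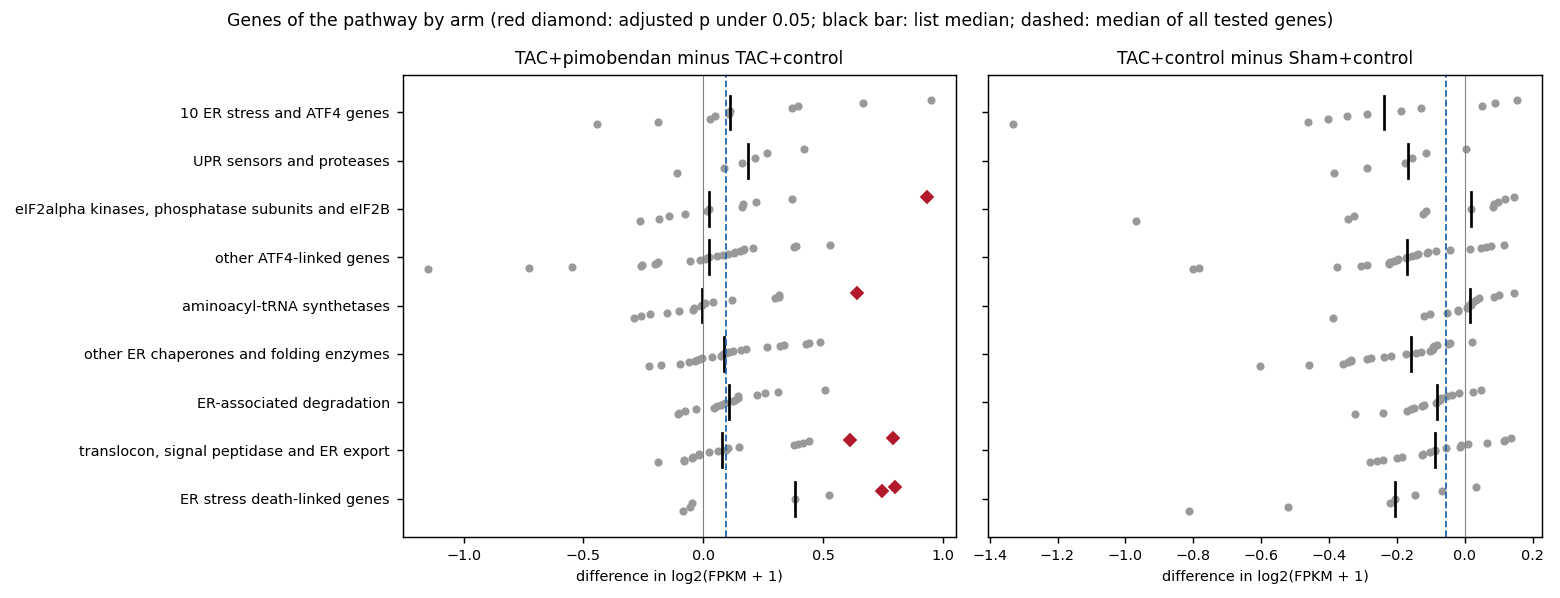
Log2 differences (x axis) of each tested gene, 1 row per list, for the drug after TAC (left) and TAC without the drug (right), with the list median as a black bar and the median of all tested genes as a dashed line. Red diamonds mark the 6 genes past the adjusted threshold, Eif2ak2, Eprs, Sec62, Sec63, Casp4 and Casp12, and the right panel has none.

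In TAC+pimobendan against Sham+pimobendan, 7 genes of the lists rose past the threshold, where 4.64% of all genes did. Called were 2 of 11 genes around eIF2alpha, 1 of 16 synthetases, 1 of 16 degradation genes and 3 of 18 translocon and export genes. Of these lists, 4, 8, 9 and 9 genes were positive, in that order. Of 25 other ATF4-linked genes 20 were negative (median -0.14, against -0.01 over all genes), and of 22 other chaperones 16 (median -0.10). None of these was called, nor any of 6 sensors and proteases (3 positive) and 7 death-linked genes (4 positive). Some cell type markers did pass in this comparison, where 0.245% of all genes were called lower. Of 8 endothelial markers 5 were negative and 3 positive (median -0.30), with 2 called lower. Of 6 smooth muscle and pericyte markers 5 were negative (median -0.27), with 1 called lower. Of 8 cardiomyocyte markers 1 was called higher. The part of cell types in the values of these lists was not tested. Sec62 rose by 0.95 ± 0.19 on the log2 scale (limma adjusted p = 0.0314), Eprs by 0.65 ± 0.13 (0.0314), Eif2ak2 by 0.80 ± 0.19 (0.0393) and Sec63 by 0.62 ± 0.15 (0.0411). Edem3, which trims mannose from misfolded glycoproteins, rose by 0.60 ± 0.15 (limma adjusted p = 0.0412), the signal recognition subunit Srp54a by 0.78 ± 0.19 (0.0412) and Eif2s1, which encodes eIF2alpha itself, by 0.39 ± 0.10 (0.0453). Among relatives of the members, Hsp90aa1, the cytosolic counterpart of Hsp90b1, rose by 0.89 ± 0.23 (limma adjusted p = 0.0455). The GC content of these 8 transcripts lay between 40.8% and 44.0%. With the GC trend removed 0 of all genes were called, and the log2 differences of these 8 were 0.05 to 0.68 (limma adjusted p between 0.0986 and 0.767). With median-ratio scaling the log2 differences of the 8 were 0.35 to 0.92, and Sec62, Eprs, Eif2ak2 and Edem3 passed while the others did not (limma adjusted p up to 0.0567). With the replicate block 0 of all genes were called, and the 8 had a limma adjusted p between 0.0652 and 0.0860. The cytosolic Hsp90ab1 and Hspa8 differed in TAC+pimobendan against TAC+control by -0.25 ± 0.07 (limma adjusted p = 0.0527) and -0.44 ± 0.12 (0.0547), while Hsp90b1 was higher. They were 2 of 11 relatives that lay lower without overlap, where 6.64% of all genes did. In sham mice the drug gave 0 called genes in every list, at a smallest limma adjusted p of 0.910 in each, and the interaction also gave 0.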

How the data were processed

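RNA from the left ventricle of 12 mice, 3 in each of 4 groups taken from the labels, was sequenced as 1 library per mouse. The authors deposited 1 table of gene-level FPKM and TPM values, rounded to 2 decimals; FPKM was used, and TPM as an alternative. Per the submitters' processing notes, RSEM 1.2.12 and DESeq2 1.4.5 were used along with Bowtie2 2.2.5, HISAT2 2.0.4 and the build GRCm38, without a role or order given for any. Strand and the handling of fragments that match several genes are not given in the sources used here, so members with close relatives carry that uncertainty. The table has no counts, so depth is unknown beyond the estimate in the text.

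A gene was kept where 3 or more libraries reached 1 FPKM. Log2(FPKM + 1) values of all 12 libraries were fitted with limma 3.58.1 (R 4.3.3) with a mean trend in the variance and 8 residual degrees of freedom. P-values were adjusted over all genes tested by Benjamini-Hochberg, separately in each of 5 comparisons, with a threshold of 0.05. Fold changes on this scale understate those of low genes. Correlations used 100000 two-sided permutations (Python 3.11.15, scipy 1.17.1). The fit was tested on simulated data. GC content was that of the longest GENCODE transcript of a gene, and its trend was removed per library by loess with a span of 0.5. Replicate numbers were taken from the labels, which give no pairing of mice. Deviations from group means of same-numbered TAC+pimobendan and TAC+control libraries correlated at 0.101 to 0.208, above 0.1 in all 3 pairs. A block fit that treats these as paired was added after the data were seen. In the other group pairs, same-numbered libraries correlated at -0.44 to 0.25. Differently numbered libraries reached 0.43, for Sham+control replicate 2 and Sham+pimobendan replicate 1, so these correlations do not establish a pairing. Alternatives are given in the closing section.

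The members and gene lists were chosen with earlier results of these data known. All 10 members are named. From each other list, up to 4 called genes of smallest p are named in a comparison, or the 2 of smallest p where none was called. Exceptions are pimobendan in sham mice and the interaction, where lists are given as counts. For TAC under the drug, lists without a call are also given as counts. Relatives of the members are named only for the drug after TAC and for TAC under the drug. For Chac1 and Hspa5 the 5 most alike genes are named. Promoter sequences are from RefSeq.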

Additional observations from a re-analysis of the deposited data

Results flagged for a closer look

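For Hsp90b1, all 3 TAC+pimobendan libraries lay above the mean FPKM of Sham+pimobendan and all 3 TAC+control libraries below that of Sham+control, a difference between the TAC effects of 1.24 on the log2 scale. The same value, 1.24, separates the pimobendan effect after TAC from that in sham mice, where the libraries also lay on opposite sides of the mean FPKM of their controls. As an interaction it had a limma adjusted p of 0.116, and without Sham+control replicate 1 it was 0.85 (limma adjusted p = 0.231). The Sham+control mean of 70.2 FPKM included 111 in that library, against 49.8 and 49.4 in replicates 2 and 3. TAC+control replicate 2 (62.9) and Sham+pimobendan replicate 1 (66.9) lay above both of these, so the position below Sham+control rested on replicate 1.

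For Dnajb9, the pimobendan effect after TAC exceeded that in sham mice by 0.61, again with the libraries of the drug groups on opposite sides of the mean FPKM of their controls, and the interaction had a limma adjusted p of 0.142. With the GC trend removed it was 0.19 (limma adjusted p = 0.686), and without Sham+control replicate 1 it was 0.44 (0.309). The Sham+control mean of 37.7 FPKM included 47.1 in that library, against 35.9 and 30.0 in replicates 2 and 3. Sham+pimobendan replicates 1 (34.8) and 3 (31.8) lay above Sham+control replicate 3.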

How the results depend on the processing

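Of 600 recomputed values outside the leave-one-out fits, 582 kept their direction and side of the threshold, 15 reversed and 3 passed the threshold anew. Of 600 leave-one-out values, 558 kept both, 40 reversed and 2 passed anew. For the drug after TAC the number of members called was 1 on TPM (Hsp90b1), 2 with the replicate block in a fit of the TAC groups only (Atf4 and Hsp90b1), and 0 to 1 when single libraries were left out. For TAC under the drug it was 0 to 1 when single libraries were left out. In both, the 1 came without Sham+control replicate 1. In the fit of all 12 libraries the replicate block changed no member call, 0 in each comparison. The number of correlated pairs past the adjusted threshold was 0, and 0 to 1 when single libraries were left out, with 1 without Sham+control replicate 2, without Sham+pimobendan replicate 3 and without TAC+pimobendan replicate 2. The cause of these changes was not tested.

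With median-ratio scaling the drug difference after TAC turned to -0.0033 for Ddit3, -0.088 for Xbp1 and -0.070 for Herpud1, and the interaction to -0.034 for Xbp1. With quantile normalization Trib3 turned to -0.12 for the drug after TAC and -0.076 for TAC under the drug. On TPM the interaction of Trib3 turned to 0.0071. With the GC trend removed, with or without the replicate block, Ddit3 turned to -0.069 for the drug after TAC, Hspa5 to -0.016 and Dnajb9 to -0.20 for TAC under the drug, and the interaction of Trib3 to 0.028.

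Leaving out single libraries gave these ranges where a direction reversed. For TAC without the drug they were -0.46 to 0.050 for Hspa5, -0.12 to 0.26 for Trib3, -0.036 to 0.34 for Atf4 and -0.033 to 0.12 for Ddit3. For the drug after TAC they were -0.066 to 0.20 for Ddit3, -0.052 to 0.14 for Xbp1, -0.011 to 0.31 for Trib3 and -0.064 to 0.18 for Herpud1. For the drug in sham mice they were -0.22 to 0.29 for Hspa5, -0.48 to 0.099 for Hsp90b1, -0.16 to 0.13 for Xbp1, -0.013 to 0.34 for Trib3, -0.12 to 0.073 for Asns and -0.53 to 0.22 for Chac1. For TAC under the drug they were -0.12 to 0.17 for Atf4, -0.0024 to 0.26 for Hspa5, -0.043 to 0.12 for Trib3 and -0.11 to 0.32 for Herpud1. For the interaction they were -0.10 to 0.19 for Xbp1, -0.23 to 0.15 for Trib3 and -0.28 to 0.091 for Atf4.

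The counts over all genes moved more. For the drug after TAC, 373 genes were called, against 1170 on TPM, 1 with the replicate block, 361 with the block in the TAC groups only, 546 without a mean trend, 520 with robust moderation, 272 with a pseudocount of 0.1 and 412 with a filter on the mean. With median-ratio scaling, quantile normalization, no filter, only the groups compared or the GC trend removed, 0 were called, and single libraries left out gave 0 to 1187. For TAC under the drug, 558 genes were called, against 734 on TPM, 355 with median-ratio scaling, 295 with quantile normalization and 0 with no filter, with only the groups compared, with the replicate block or with the GC trend removed, and single libraries left out gave 0 to 1222. For TAC without the drug 2 genes were called with only the groups compared, and 0 to 4 when single libraries were left out. With 3 mice a group and no counts, differences of low genes such as Chac1 carry a counting error that the table does not show.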
